A study of Mus musculus with 221 samples.

Results

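The translation initiation and elongation factors were examined in single mouse hemogenic endothelium (HE) cells, the endothelial cells that give rise to blood, and in the blood progenitors that follow them. Members were all genes whose symbol begins with Eif or Eef followed by a digit and that have at least 1 protein-coding transcript. Symbols marked as pseudogenes and Eif4a3, a helicase of the exon junction complex, were left out. This gave 86 of the 78317 genes in the count table, which together held 1.24% of all counts. By function, 69 fell into 12 classes, 16 were copies named after Eif1ad, and Eef1ece2 was placed in none.

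Translation starts when the small ribosomal subunit, carrying the initiator tRNA in the Eif2 ternary complex and held open by Eif1, Eif1a and the large Eif3 complex, is recruited to a capped mRNA by Eif4e, Eif4g and the Eif4a helicase. Eif5 and Eif5b then set the start codon and join the large subunit. Eef1a delivers aminoacyl-tRNAs, Eef1b2, Eef1d and Eef1g recharge it with GTP, Eef2 moves the ribosome along, and Eif5a, which carries the unusual amino acid hypusine, relieves ribosomes that stall. Supply of these factors is known to limit protein synthesis in growing cells, and blood stem cells are known to hold their protein synthesis low.

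The cells came from untreated mouse embryos. Fathers carried the Runx1b-RFP and Gfi1-GFP reporters, singly or together, on C57BL/6JOlaHsd, and mothers were wild-type CD-1. The paper gives this cross for its reporter embryos as a whole. HE of the aorta-gonad-mesonephros region (HE-AGM) was sorted as RUNX1+ KIT- CDH5+ cells, with or without GFI1 and lacking CD41 and CD45, whereas yolk sac HE was sorted as RUNX1+ KIT+ CD31+ cells with the same other gates. The study's clustering split HE-AGM into early (c3) and late (c4) cells, arterial yolk sac HE (HE-YSA) into early (a1) and late (a2), and plexus yolk sac HE (HE-YSP) into early (b2) and late (b3). Cluster c5, labelled HE-Hb, holds the hematopoietic cluster cells inside the aorta. Clusters p1 and p2 are early yolk sac progenitors skewed to the lympho-myeloid (LMP) and the erythro-myeloid (EMP) fate. Yolk sac library names give embryonic days 9.0, 9.5 and the middle of day 10, whereas the AGM names, with 1 exception, give no day. Each GEO sample was 1 cell and no embryo was named. Each group therefore counts as 1 sample, and no p-value or standard error was computed.

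Of 221 cells, 208 reached the depth limit of 17595 estimated counts. They comprised 49 HE-AGM, 52 HE-YSA, 49 HE-YSP, 21 c5, 17 p1 and 20 p2 cells. The median HE-AGM cell had 59311 counts (range 30323 to 125339), whereas medians in yolk sac HE were 34484 (HE-YSA, range 18543 to 71389) and 33297 (HE-YSP, range 18131 to 84052). AGM cells thus had deeper libraries, and they were also made in another cDNA project than the yolk sac cells, so tissue and project cannot be told apart. Exceptions were 6 c3 cells of other projects, 1 a1 cell of a project used for AGM, and 2 yolk sac cells with AGM in the library name. Levels are given in CPM, the counts of a gene scaled to a total of 1000000. Summed over 6 endothelial markers (Cdh5, Pecam1, Kdr, Tek, Emcn, Tie1), the median cell had 1804 CPM in c3, 892 in c4 and 282 in c5. These markers also stood higher in a1 (1048 CPM) and b2 (1119) than in a2 (532) and b3 (557), and were lowest in p1 (141) and p2 (183), in the order the labels give. The plexus markers Lyve1 and Stab2 were at a median of 1879 CPM in b2, 246 in b3 and 0 in every other cluster, with Stab2 at 0 in b3. The arterial markers Vwf and Cd24a had medians of 696 CPM in c3, 249 in a1 and 0 in b2. Runx1, Gfi1 and Kit, markers of HE, had a median of 0 in b2, against 71.3 CPM in b3 and 140 in a1. Progenitor genes (Myb, Ptprc, Spi1, Itga2b) were higher in c4 (464 CPM) than in c5 (437), though p1 (174) and p2 (132) exceeded a2 (79.0) and b3 (102). The macrophage list (C1qa, Csf1r, Adgre1, Cd68, Mrc1) had a median of 71.9 CPM in b2 (0 to 539), where C1qa and Adgre1 were at 0, and a median of 0 in every other cluster. Marker lists of mesenchyme, yolk sac endoderm and erythroid cells had a median of 0 in all 9 clusters, and 1 c3 cell carried 9973 CPM of erythroid genes.

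Levels below are estimated counts summed over the cells of a group and given as CPM. Values in brackets after a level are the lowest, the median and the highest cell. A gene was tested when it reached 25 CPM in either group and was called when the groups differed at least 2-fold in the same direction in each of the 3 nanopore runs over which every cluster was spread. Intervals are exact 95% counting intervals and cover counting error only. In all, 51 members reached 25 CPM in some cluster and 35 did not. Among the latter, 19 had fewer than 3 counts over all cells, and Eef1a2, the muscle and nerve form of Eef1a, was at 0 in all 208, as were Eef1ece2, Eif4e1b, Eef1akmt3 and Eif1ad16. The other low members were the 4 Eif2 kinases Eif2ak1 to Eif2ak4, Eif2s1, Eif3f, Eif3j1, Eif3j2, Eif4e3, Eif4ebp3, Eif5a2, Eef1e1, Eef1akmt2, Eef2k, Eif1ax and the remaining copies of Eif1ad. Of Eif2ak4, the kinase that senses uncharged tRNA, HE-AGM had 13.8 CPM, HE-YSA 5.25 and HE-YSP 1.79. Eif5a2, the second Eif5a gene, was at 8.41, 0.52 and 2.99 CPM in the same order. None of these low genes was compared between groups.

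Summed over all 86 members, the median HE-AGM cell held 11514 CPM (range 8042 to 14010), the median HE-YSA cell 12448 (8288 to 17573) and the median HE-YSP cell 12243 (8135 to 17763). The ranges overlapped, although the highest yolk sac cells lay above every HE-AGM cell. Some classes differed more than the total. Cap-binding genes summed to 2675 CPM in the median HE-AGM cell (1089 to 4174), against 1559 in the median HE-YSA cell (705 to 2719) and 1627 in the median HE-YSP cell (317 to 2578). The elongation factors went the other way, with medians of 3150 CPM (2150 to 4708), 3926 (2312 to 7358) and 3935 (2369 to 6326). Their cells overlapped in both classes. These class sums hold the genes alone. They leave out the pseudogene copies of some members and take no account of transcript length, both described below.

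**Figure D1:**
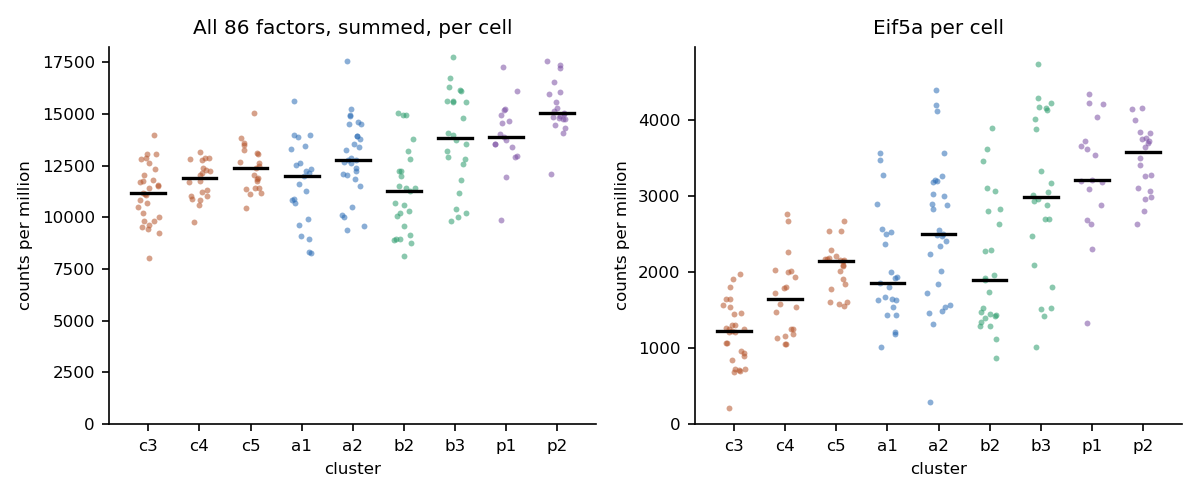
Level per cell in CPM by cluster, of all 86 factors summed (left) and of Eif5a (right). Points are cells and bars are cluster medians. Medians of the sum run from 11169 in c3 to 15040 in p2 and those of Eif5a from 1225 in c3 to 3575 in p2, with overlapping cells.

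HE-AGM was compared with HE-YSA and with HE-YSP to ask how HE of the embryo proper differs from yolk sac HE. Against HE-YSA, 48 members were tested, of which 10 were higher and 3 lower in HE-AGM. This was 27.1% of the members, where 36.9% of all 6385 tested genes were called (24.2% higher, 12.8% lower). Against HE-YSP, 12 of 49 members were higher and 3 lower (30.6%), where 41.3% of 6471 genes were called (26.1% higher, 15.1% lower). Both shares lay below those of all genes. Both comparisons use the same HE-AGM cells. The median log2 ratio of HE-AGM over HE-YSA was 0.24 over the members and 0.13 over all genes, and over HE-YSP it was 0.32 and 0.16. Cap-binding genes made up 3 of the 10 higher calls against HE-YSA (of 8 tested) and 4 of the 12 against HE-YSP. Among Eif3 subunits, 11 were tested, with 2 higher and 1 lower against HE-YSA and 3 higher and 1 lower against HE-YSP.

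**Figure D2:**
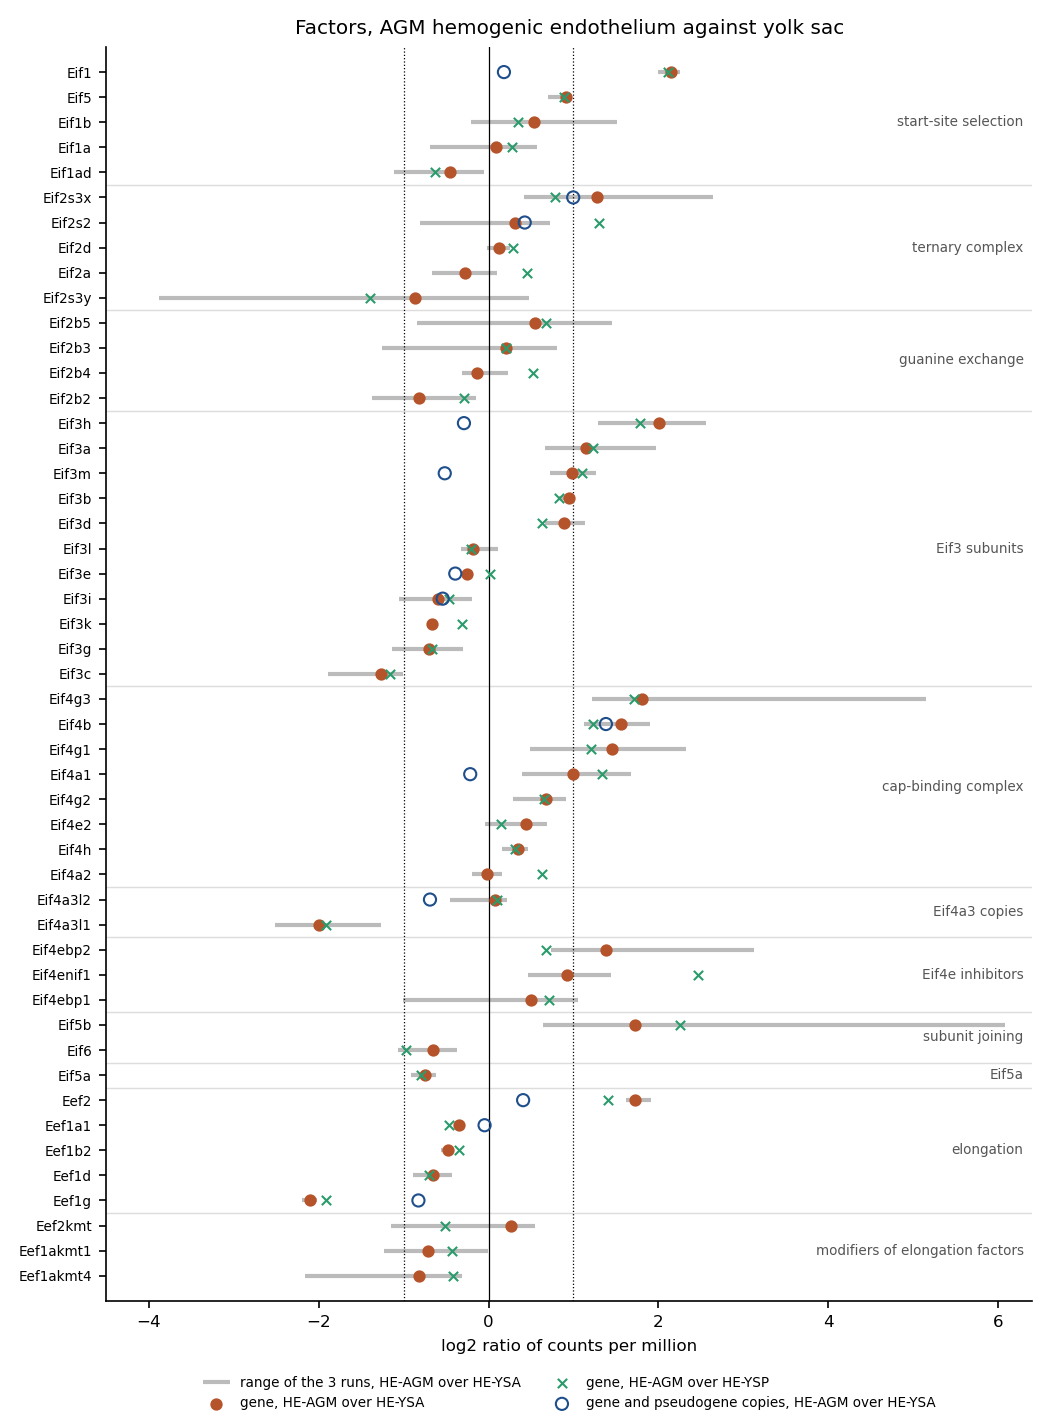
Log2 ratio of HE-AGM over HE-YSA (filled circles, with the range of the 3 runs as grey bars) and over HE-YSP (crosses) for the members tested, by class; open circles add the pseudogene copies and dotted lines mark 2-fold. Over HE-YSA, Eef1g (-2.10) and Eif4a3l1 (-2.00) lie lowest and Eif1 (2.14) and Eif3h (2.01) highest, and the open circles of Eif1, Eif3h, Eif4a1 and Eef2 lie between the dotted lines.

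For 6 of the called members a processed pseudogene, a near-identical copy made by reverse transcription of the mRNA, held a large share of the reads. The pairs are printed to show where gene and copy differ. Each line is 60 coding bases, in the window without gaps that holds the most differences, so the pairs are less alike than the whole. The bases are from the gene's GENCODE M21 transcript or the aligned stretch of its copy, 5′ to 3′. Differing bases are in capitals and the GRCm38 chromosome is in the name.
Eef2, chromosome 10: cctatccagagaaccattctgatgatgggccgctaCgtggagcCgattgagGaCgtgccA
Eef2-ps2, chromosome 4: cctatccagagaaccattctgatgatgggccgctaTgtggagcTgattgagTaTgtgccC
Eif4a1, chromosome 11: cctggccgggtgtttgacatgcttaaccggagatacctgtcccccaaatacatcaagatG
Eif4a-ps4, chromosome 1: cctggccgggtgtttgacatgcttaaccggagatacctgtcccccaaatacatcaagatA
Eif3h, chromosome 15: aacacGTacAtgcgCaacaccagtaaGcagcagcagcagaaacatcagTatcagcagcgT
Gm6552, chromosome 17: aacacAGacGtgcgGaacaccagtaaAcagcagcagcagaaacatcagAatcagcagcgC
Eif1, chromosome 11: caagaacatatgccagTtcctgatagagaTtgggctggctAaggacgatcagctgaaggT
Gm10157, chromosome 9: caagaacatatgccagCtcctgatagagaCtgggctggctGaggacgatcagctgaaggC
Eef1g, chromosome 19: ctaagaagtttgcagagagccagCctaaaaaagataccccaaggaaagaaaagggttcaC
Gm4366, chromosome 7: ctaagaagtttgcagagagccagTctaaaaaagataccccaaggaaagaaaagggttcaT
Eif3m, chromosome 2: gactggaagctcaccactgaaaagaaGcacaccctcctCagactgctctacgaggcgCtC
Gm7658, chromosome 1: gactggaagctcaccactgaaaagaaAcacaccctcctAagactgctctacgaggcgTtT
The stretches start at base 1432 of Eef2-201, 491 of Eif4a1-213, 847 of Eif3h-201, 515 of Eif1-201, 826 of Eef1g-201 and 550 of Eif3m-201. Over their whole aligned length, identity of copy and gene was 97.0% over 1345 bases for Eef2, 99.9% over 1218 for Eif4a1, 96.3% over 1061 for Eif3h, 98.2% over 343 for Eif1, 99.6% over 1342 for Eef1g and 98.5% over 1125 for Eif3m.

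Eef2, the translocase of elongation, stood at 620 CPM in HE-AGM [225, 616, 1127], against 187 in HE-YSA [0, 155, 1016] and 233 in HE-YSP [0, 170, 964]. No HE-AGM cell lacked it, and the median HE-AGM cell lay above most yolk sac cells, although the ranges overlapped. The log2 ratio of HE-AGM was 1.72 over HE-YSA (1.56 to 1.89) and 1.41 over HE-YSP (1.26 to 1.57). Its copy Eef2-ps2 had the opposite order, with 153, 398 and 457 CPM. Of all counts placed on Eef2 or its copies, 21.4% lay on copies in HE-AGM (19.9 to 23.1), 68.5% in HE-YSA and 66.8% in HE-YSP. When gene and copies were summed, the log2 ratio was 0.41 over HE-YSA and 0.17 over HE-YSP, and Eef2 was no longer called.

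Eif4a1, the main helicase that unwinds the mRNA leader, was at 448 CPM in HE-AGM [96.1, 403, 1200], against 225 in HE-YSA [0, 216, 720] and 177 in HE-YSP [0, 143, 715]. It was called against HE-YSP, with a log2 ratio of 1.34 (1.16 to 1.52). Over HE-YSA the ratio was 0.99 (0.84 to 1.15), just short of 2-fold. Eif4a-ps4 again stood lower in HE-AGM (199 CPM) than in HE-YSA (526) and HE-YSP (387), and copies took 30.8%, 70.1% and 68.7% of the counts. Summed with its copies, Eif4a1 had a log2 ratio of -0.22 over HE-YSA.

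Eif3h, an outer subunit of Eif3, was at 126 CPM in HE-AGM [0.011, 94.1, 458], against 31.1 in HE-YSA [0, 24.9, 247] and 36.5 in HE-YSP [0, 4.15, 315]. Eif1, which keeps the scanning ribosome from starting at wrong codons, was at 143 CPM [0.001, 114, 644], 32.0 [0, 9.60, 156] and 32.8 [0, 0.51, 200]. HE-AGM was higher for both, with log2 ratios over HE-YSA of 2.01 (1.63 to 2.45) for Eif3h and 2.14 (1.77 to 2.56) for Eif1. Copies took 45.4% of Eif3h counts in HE-AGM against 89.0% in HE-YSA and 86.2% in HE-YSP. Of Eif1 counts, 67.7%, 91.8% and 91.8% lay on copies. With copies summed the ratios over HE-YSA became -0.29 for Eif3h, which turned its direction, and 0.18 for Eif1. Eif3m, a further Eif3 subunit that was called only against HE-YSP (1.11, 0.52 to 1.72), had 88.8% of its counts on Gm7658 in HE-AGM and 96.1% in both yolk sac groups, and its summed ratio over HE-YSP was -0.40.

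Eef1g, the scaffold subunit of the Eef1a recharging complex, was the exception in direction. It was at 60.1 CPM in HE-AGM [0, 45.9, 214], against 258 in HE-YSA [39.5, 246, 804] and 226 in HE-YSP [0, 221, 532], which gave log2 ratios of -2.10 (-2.35 to -1.86) and -1.91 (-2.17 to -1.66). Its copy Gm4366 held most of the reads everywhere, with 865, 1491 and 1464 CPM. The copies' share was higher in HE-AGM (94.2%) than in HE-YSA (85.95%) or HE-YSP (87.4%). Gene and copies summed were still lower in HE-AGM, with log2 ratios of -0.83 and -0.79, but under 2-fold.

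In all, 18 members had a processed pseudogene with at least 90% identity over at least 200 bases, and these members had 61 copies. With the copies added to every member, 6 members were higher and 3 lower in HE-AGM in each comparison. Copies were sought for members only, so no share of all genes stands beside these counts. Eif3a, Eif4b, Eif4g1, Eif4g3 and Eif5b were higher in both, with Eif4ebp2 over HE-YSA and Eif4enif1 over HE-YSP. Eif3c, Eif4a3l1 and Eif4e were lower in both. Of the 14 copies of Eef1a1, Gm5869 was higher in HE-AGM (303 CPM) than in HE-YSA (89.5) and HE-YSP (70.9), Eef1a1-ps1 was lower (48.0, 60.8 and 74.3 CPM), and all copies together held 426, 209 and 218 CPM. Whether reads on a copy came from the copy or from the gene was not tested.

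**Figure D3:**
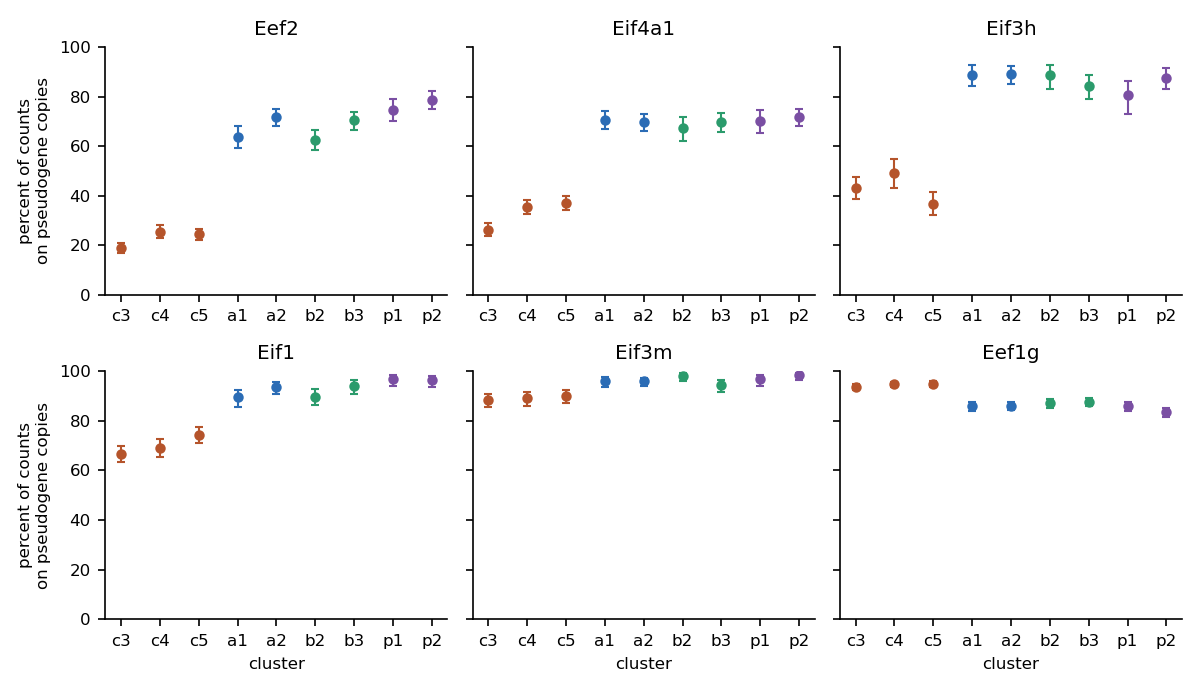
Percent of the summed counts of a gene and its processed pseudogenes that lie on the pseudogenes, for 6 members by cluster, with exact 95% binomial intervals. The share is lower in the 3 AGM clusters than in the 6 yolk sac clusters for Eef2, Eif4a1, Eif3h, Eif1 and Eif3m, and higher for Eef1g.

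The Eif4g scaffolds, which bridge the cap-binding protein and Eif3, were higher in HE-AGM. Eif4g1 was at 389 CPM in HE-AGM [110, 362, 866], against 142 in HE-YSA [0, 112, 672] and 169 in HE-YSP [0, 118, 608]. Its log2 ratios were 1.45 (1.26 to 1.65) and 1.20 (1.02 to 1.40), and the ratio over HE-YSA ran from 0.49 to 2.33 over the runs. Eif4g3 was at 191 [0, 147, 792], 54.6 [0, 0, 274] and 58.0 [0, 0, 391] CPM, with ratios of 1.80 (1.51 to 2.12) and 1.72 (1.41 to 2.04). The median yolk sac cell had no count of Eif4g3. Eif4g2, a relative that cannot bind Eif4e, was at 562, 352 and 357 CPM and was not called (0.67 and 0.65).

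Eif4b, which stimulates the helicase, was at 215 CPM in HE-AGM [0, 180, 675], against 73.1 in HE-YSA [0, 50.1, 429] and 91.9 in HE-YSP [0, 61.4, 381]. Its log2 ratios were 1.55 (1.30 to 1.83) and 1.23 (0.97 to 1.49), and with copies summed it kept 1.38 over HE-YSA. Eif4h, which does the same work, was at 595, 468 and 479 CPM and was not called (0.35 and 0.32). Eif4a2, the second helicase gene, had equal levels in HE-AGM (174 CPM) and HE-YSA (177) and 112 CPM in HE-YSP. Eif4e itself, the protein that binds the cap, was at only 6.66 CPM in HE-AGM against 24.2 and 23.4, under the 25 CPM needed for a test in any of these groups. Eif4e2, its weaker-binding relative, was at 70.9, 52.0 and 64.0 CPM and was not called.

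Among the proteins that hold Eif4e away from Eif4g, Eif4ebp2 was at 54.1 CPM in HE-AGM [0, 55.8, 264], against 20.5 in HE-YSA [0, 0, 178] and 33.5 in HE-YSP [0, 0, 237]. It was called over HE-YSA (1.39, 0.90 to 1.94) and not over HE-YSP (0.68). Eif4enif1, which carries Eif4e into the nucleus, was at 41.1 CPM [0, 36.0, 213], 21.5 [0, 0, 339] and 7.18 [0, 0, 174]. It was called over HE-YSP (2.47, 1.67 to 3.51) and not over HE-YSA (0.92). Eif4ebp1 was at 48.4, 34.1 and 29.3 CPM with no call, and Eif4ebp3 had 6.31, 0.26 and 1.79 CPM.

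In the Eif3 complex, Eif3a, its largest subunit, was at 214 CPM in HE-AGM [0, 210, 621], against 96.6 in HE-YSA [0, 76.9, 528] and 91.5 in HE-YSP [0, 53.2, 347]. It was called with log2 ratios of 1.15 (0.92 to 1.39) and 1.23 (0.97 to 1.49). Eif3c, its partner in the core, went the other way with 40.5 CPM [0, 20.2, 236], 97.9 [0, 81.8, 440] and 90.9 [0, 71.6, 312], and ratios of -1.27 (-1.60 to -0.95) and -1.16 (-1.51 to -0.82). Eif3a and Eif3c were thus called in opposite directions, but neither call remained after length-bin medians were subtracted, as described below. Counts of Eif3c also lay largely on short models, and its full-length Eif3c-201 had a higher share in HE-AGM, as given below. Eif3b, Eif3d, Eif3e, Eif3g, Eif3i, Eif3k and Eif3l were not called, and their ratios over HE-YSA ran from -0.70 for Eif3g (382 against 620 CPM) to 0.95 for Eif3b (285 against 148 CPM).

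In the ternary complex, Eif2s3x, the X-linked gene of the GTP-binding subunit, was at 195 CPM in HE-AGM [0, 183, 535], against 80.6 in HE-YSA [0, 74.9, 377] and 114 in HE-YSP [0, 91.7, 447]. It was called over HE-YSA only (1.27, 1.02 to 1.53), and the call remained without the 6 c3 cells of other projects. It was lost with the copies added (0.997) and after the median of its length bin was subtracted (0.24). Eif2s2, the beta subunit, was at 56.5 CPM [0, 36.99, 201], 45.5 [0, 24.3, 269] and 22.7 [0, 0, 254], and was called over HE-YSP only (1.30, 0.80 to 1.86). With its copy added the ratio over HE-YSP was 0.78 and no call. Eif2a and Eif2d, alternative carriers of the initiator tRNA, were between 31.1 and 51.4 CPM in all 3 populations and were not called. None of the 4 exchange factor subunits tested, Eif2b2 to Eif2b5, was called, with ratios over HE-YSA from -0.82 (Eif2b2) to 0.55 (Eif2b5).

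Of the remaining start-site and joining factors, Eif5, which makes Eif2 hydrolyse its GTP, was at 196, 104 and 105 CPM and stayed just short of 2-fold (0.91 and 0.89). Eif1a, Eif1b and Eif1ad were between 47.2 and 96.9 CPM with no call. Eif5b, the GTPase of subunit joining, was at 44.2 CPM in HE-AGM [0, 28.9, 240], against 13.1 in HE-YSA [0, 0, 188] and 8.97 in HE-YSP [0, 0, 158]. Its ratios were 1.73 (1.13 to 2.42) and 2.257 (1.53 to 3.17), from 25 counts in HE-YSA and 15 in HE-YSP. Eif6, which keeps the ribosomal subunits apart, had the opposite order of levels (221, 347 and 432 CPM) and was not called (-0.65 and -0.97). Eif4a3l1, a gene named for its likeness to Eif4a3, was at 37.9 CPM [0, 23.1, 171], 151 [0, 146, 435] and 143 [0, 133, 500], with ratios of -2.00 (-2.31 to -1.69) and -1.92 (-2.24 to -1.60). Its neighbour in name Eif4a3l2 had 146, 139 and 136 CPM, and since counting may split reads between such similar genes, their single values are uncertain. Summed, both genes had log2 ratios of -0.66 over HE-YSA and -0.60 over HE-YSP, under 2-fold.

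Eif5a was lower in HE-AGM by less than 2-fold. It stood at 1385 CPM in HE-AGM [211, 1263, 2762], against 2331 in HE-YSA [288, 2359, 4397] and 2397 in HE-YSP [868, 2633, 4734]. Its log2 ratios were -0.75 (-0.81 to -0.69) and -0.79 (-0.85 to -0.73), with the same direction in each run, and the cells overlapped over most of their range. Of the other elongation factors, Eef1a1, the tRNA carrier, was at 966, 1229 and 1331 CPM (-0.35 and -0.46). Eef1b2 was at 1107, 1547 and 1408 CPM (-0.48 and -0.35), and Eef1d at 422, 665 and 686 CPM (-0.66 and -0.70). All 4 genes thus had negative ratios and none was called. Of the modifiers, Eef1akmt1 and Eef1akmt4, which methylate Eef1a, had ratios over HE-YSA of -0.72 and -0.82, and Eef2kmt, which methylates Eef2, had 0.27, with no call.

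The ratios of HE-AGM over yolk sac HE moved with transcript length, the mean length in bases of a gene's transcripts weighted by their counts. Spearman's rho between length and the ratio over HE-YSA was 0.59 across the 48 members and 0.40 across all 6385 genes tested, which share libraries and are not independent. Over HE-YSP it was 0.56 across members and 0.38 across all genes. Between HE-YSA and HE-YSP it was -0.21 and 0.02. The median ratio of all genes over HE-YSA was -0.53 in the length bin from 955 to 1206 bases and 1.32 in the bin of 3936 bases and above, where genes were put in 10 bins of equal size. Eif4g1 (4114 bases), Eif4g3 (2965), Eif3a (4216), Eif5b (5749) and Eef2 (3043) have long transcripts, whereas Eif5a (1121), Eef1d (1098), Eef1b2 (565) and Eef1g (659) have short ones. After the median of each gene's length bin was subtracted, a step added after seeing the data, 5 members were higher and 2 lower over HE-YSA. The share of all genes called after this step was not computed, so these counts have no background. Eif4g1 then had 0.13, Eif3a -0.17, Eef2 0.69, Eif5a -0.22 and Eef1a1 0.18. Eif1, Eif3h, Eif3m, Eif4a1 and Eif3d were the higher calls and Eef1g and Eif4a3l1 the lower ones, and of these Eif1, Eif3h, Eif3m, Eif4a1 and Eef1g are among the 6 genes shown above with a processed pseudogene.

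**Figure D4:**
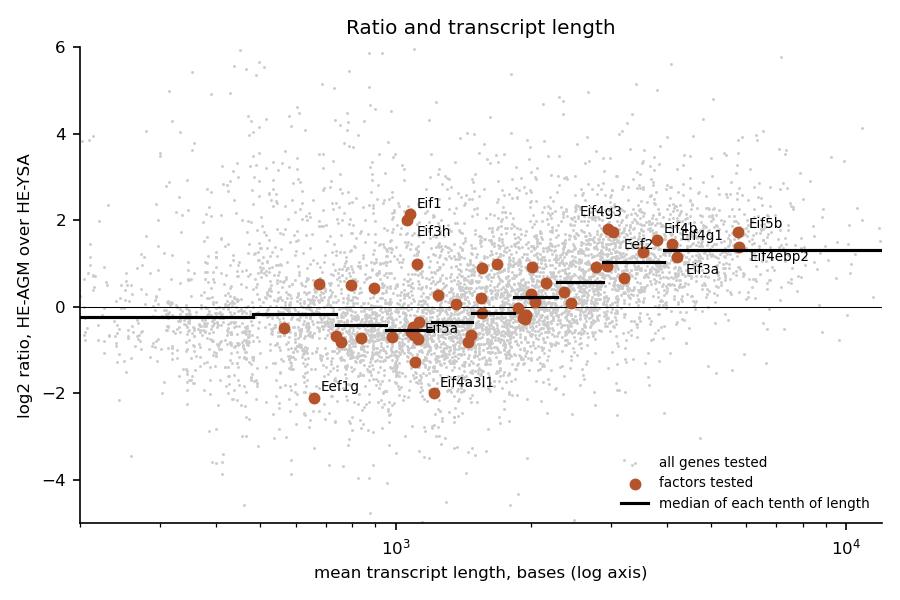
Log2 ratio of HE-AGM over HE-YSA against mean transcript length in bases (log axis), with all genes tested as small grey points, the members as large points and the median of each of the 10 length bins as black lines. The line lies at -0.53 in the bin from 955 to 1206 bases and at 1.32 in the longest bin.

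Long reads also place counts on single isoforms, and here the members differed between HE-AGM and yolk sac HE within the gene. An isoform was called when its share of the gene's counts differed by more than 20 percentage points in the same direction in each run, for genes with at least 100 counts in each group. Over HE-YSA, 12 of 32 members had a called isoform, where 24.5% of 1977 genes did. Over HE-YSP it was 9 of 29 members, where 22.4% of 1750 genes did. Between HE-YSA and HE-YSP no member of 27 had one, with 1.44% of 1664 genes called. Fractions of nearly identical transcripts can be split evenly by the counting, so that some pairs of isoforms have the same value.

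In several of the members called over both yolk sac populations, among them Eef1b2, Eef1a1, Eif3d and Eif4a1, yolk sac counts lay more on models that stop early. The next 3 stretches show, for Eef1b2, Eef1a1 and Eif3d, where the short model ends in the full coding transcript. Bases that only the long transcript holds are in capitals.
Eef1b2-209, chromosome 1, bases 442 to 501 of 681: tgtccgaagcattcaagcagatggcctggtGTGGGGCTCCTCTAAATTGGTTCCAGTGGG
Eef1a1-201, chromosome 9, bases 649 to 708 of 1794: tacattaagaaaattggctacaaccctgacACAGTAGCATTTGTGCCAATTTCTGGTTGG
Eif3d-201, chromosome 15, bases 621 to 680 of 1899: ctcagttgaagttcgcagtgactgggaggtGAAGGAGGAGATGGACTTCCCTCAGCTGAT
The short models are Eef1b2-206 (482 bases, annotated as subject to nonsense-mediated decay), Eef1a1-208 (745 bases) and Eif3d-207 (706 bases).

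Of Eef1b2, the exchange factor that recharges Eef1a, HE-AGM placed 47.9% of counts on the full-length Eef1b2-209 (46.3 to 49.6), against 4.22% in HE-YSA and 5.57% in HE-YSP. Its short form Eef1b2-206 had 22.2% in HE-AGM (20.9 to 23.6), 80.6% in HE-YSA and 81.2% in HE-YSP. Its share in single cells was 0.01 to 75.1% in HE-AGM with a median of 19.8%, 47.4 to 98.8% in HE-YSA with a median of 81.8%, and 41.8 to 97.7% in HE-YSP with a median of 84.6%. Most HE-AGM cells lay below every HE cell of the yolk sac, with some overlap. The progenitors resembled the HE of their own tissue in level, with medians of 18.4% in c5, 84.7% in p1 and 82.6% in p2. The 5 c3 cells of the cDNA project that also held 1 a1 cell had 0.02, 11.9, 12.3, 12.6 and 49.8%, the a1 cell of that project had 84.3%, and the c3 cell of a further project had 75.1%. The 2 yolk sac cells with AGM in their name had 95.3% and 80.1%. Without the 6 c3 cells of other projects the HE-AGM share was 22.5%.

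Eef1a1 gave the same picture with its full-length Eef1a1-201 at 46.0% in HE-AGM (44.2 to 47.7), 3.31% in HE-YSA and 2.95% in HE-YSP. In single cells the share was 11.04 to 78.1% with a median of 43.3% in HE-AGM, 0 to 55.2% with a median of 2.17% in HE-YSA, and 0 to 13.3% with a median of 2.09% in HE-YSP. The truncated Eef1a1-208 had 4.69%, 29.6% and 32.5%. Cluster c5 had 56.9% on the full-length form, whereas p1 had 3.76% and p2 3.34%. Eef1a1-205, a retained-intron model of 1152 bases, was similar in all 3 populations (27.1, 32.3 and 30.7%).

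Of Eif3d, the Eif3 subunit that can itself bind a cap, the full-length Eif3d-201 had 84.7% in HE-AGM, against 40.6% in HE-YSA and 50.9% in HE-YSP, and Eif3d-207 took 7.33, 52.5 and 44.4%. These shares rest on 327, 101 and 106 counts. In the 8 HE-YSA cells with at least 5 counts of the gene the median share of Eif3d-207 was 36.9% (18.2 to 99.6), and in the 6 such HE-YSP cells it was 12.1% (0 to 92.9), below the pooled value. Eif3e-201, the full-length form of an Eif3 subunit, had 76.8%, 23.6% and 24.4%, while Eif3e-204, a retained-intron model of 2633 bases, had 18.9, 63.5 and 60.4%. The alternative Eif3e model is longer than the full coding form, not shorter. Eif3c-201, of 3383 bases, had 27.4% in HE-AGM, against 2.42% in HE-YSA and 0 in HE-YSP, where the interval reaches 2.40%. Of Eif3l, in contrast, the full-length Eif3l-201 was lower in HE-AGM (73.6%) than in HE-YSA (95.9%) and HE-YSP (94.7%), and the retained-intron Eif3l-204 had 25.7, 0.82 and 1.86%.

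In the other classes, Eif4a1-201, a short model annotated for nonsense-mediated decay, had 3.69% in HE-AGM, against 27.5% in HE-YSA and 28.8% in HE-YSP. Eef1d-201 had 30.5, 54.0 and 54.7%, and its longest form Eef1d-204 had 13.9, 4.80 and 5.39%. The lower-count genes with a call over HE-YSA were Eif1a, Eif1ad, Eif2b2 and Eif4g3. The full-length Eif1a-201 had 44.1% in HE-AGM against 10.9%, and the full-length Eif1ad-201 41.6% against 11.6%. Eif2b2-203 (31.3% against 3.68%) is a retained-intron model of 587 bases that holds only bases 743 to 957 of Eif2b2-204. That full coding form was lower in HE-AGM without a call (7.88% against 25.03%), and the early-ending Eif2b2-205 was called lower (28.3% against 49.4%). Eif4g3-210 (65.6% against 40.4%) ends at base 1156 of the 6235-base Eif4g3-205, so of Eif4g3 HE-AGM had more on this early-ending model. Of Eif4e2, called over HE-YSP, Eif4e2-204 had 72.9% in HE-AGM and 25.2% in HE-YSP, and the shorter Eif4e2-208 had 25.4% and 72.9%. For 4 of these genes, Eif1a, Eif1ad, Eif2b2 and Eif3c, HE-AGM had between 135 and 209 counts.

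Over 30 members with a full-length reference form, the mean share of counts on models that end before 80% of that form was 22.6% in HE-AGM, against 36.5% in HE-YSA and 36.3% in HE-YSP, and it was above the HE-AGM value in 23 and 22 members. Over all 1829 such genes the means were 21.9, 31.2 and 31.1%, with 1316 and 1256 genes above HE-AGM. This early-ending share was below the HE-AGM value in 6 and 7 members, and in 282 and 321 of all genes. More genes thus had a higher share on models lacking the far end in yolk sac HE than a lower one, among the factors and among all genes. The relation of this pattern to the cDNA project was not tested beyond the cells of other projects named above. The share on models that start after the first 20% was small in the members, at 5.66, 4.08 and 3.66%. In HE-YSA it was above the HE-AGM value in 10 members and below it in 10, and in HE-YSP above in 11 and below in 9. Of all genes, 460 and 481 were above HE-AGM in this late-starting share, and 677 and 652 were below.

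**Figure D5:**
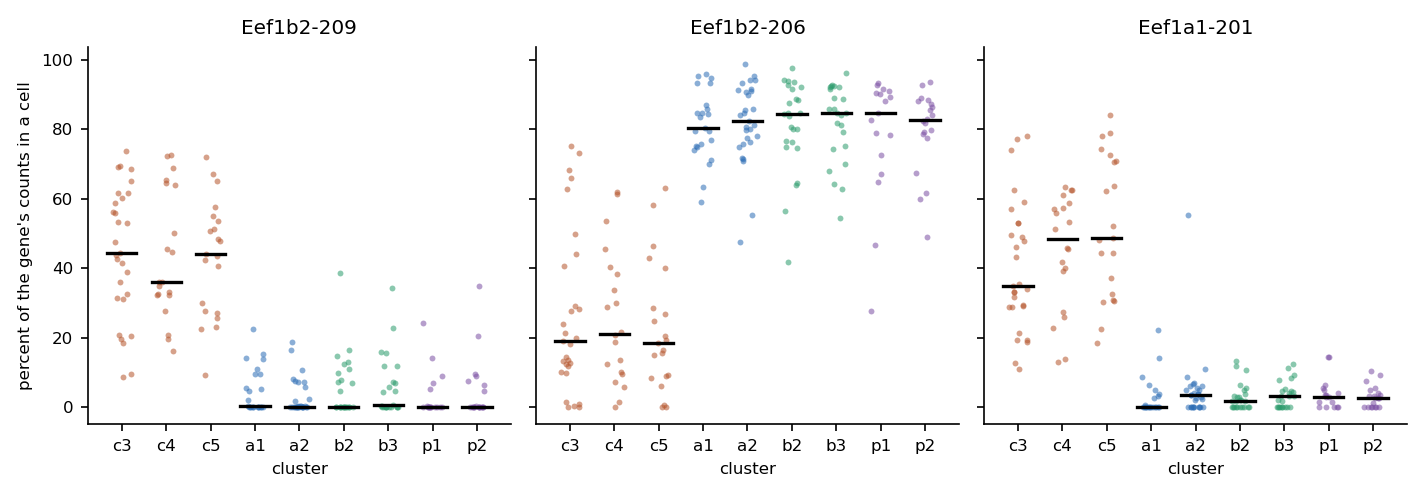
Percent of a gene's counts on Eef1b2-209, Eef1b2-206 and Eef1a1-201 in single cells by cluster, for cells with at least 5 counts of the gene, with medians as bars. The medians of Eef1b2-206 lie between 18.4 and 21.1% in the 3 AGM clusters and between 80.4 and 84.7% in the 6 yolk sac clusters.

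Of 46 members tested between HE-YSA and HE-YSP, none was called, where 10.1% of 5409 genes were called. Eif2s2 came nearest among them, at 45.5 CPM in HE-YSA and 22.7 in HE-YSP (0.99), just short of 2-fold. It passed the limit with poscounts size factors, after centring on the median of all genes, with the depth limit set on the log scale, after thinning, in cells of 30000 to 60000 counts, in cells of the latest embryonic day and without the 3 yolk sac cells of another project or with AGM in the name. When counts of its copy Gm9892 were included, Eif2s2 reached 64.9 CPM for arterial and 50.8 CPM for plexus yolk sac HE. The copy alone had the opposite order, at 19.4 and 28.1 CPM. No member was called between these populations once copies were added to every member. Eif4enif1 was at 21.5 and 7.18 CPM, under the 25 CPM needed for a test. The median log2 ratio was -0.02 over members and over all genes.

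From early to late HE in the AGM, no member of 48 was called, where 12.7% of 6544 genes were. Without the 6 c3 cells of other projects Eif2b5 was called (1 of 48). From a1 to a2, 2 members were higher and 2 lower of 47 tested (5.29% and 7.48% of 5574 genes, 12.8% in all). Eif2b5, the catalytic subunit of the exchange factor that recharges Eif2, was at 17.8 CPM in a1 [0, 0, 116] and 75.1 in a2 [0, 19.8, 263], and was seen in 6 of 23 and 15 of 29 cells (log2 2.04, 1.27 to 2.98). Eif2b1, its regulatory subunit, had 3.33 counts in a1 and 37 in a2 (2.95, 1.62 to 5.63). Eif4ebp2 (33.3 to 10.3 CPM) and Eif1a (88.7 to 33.8 CPM) were lower in a2. These calls rest on few counts, and cells of both clusters reach 0 for each gene.

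From b2 to b3, 5 members were higher and 1 lower of 48 tested, where 8.93% and 8.84% of 5544 genes were, 17.8% in all. Eif1ad was at 55.2 CPM in b2 [0, 25.6, 512] and 140 in b3 [0, 106, 480], with a log2 ratio of 1.33 (0.84 to 1.86). Eif4e was at 12.4 and 34.8 CPM (1.45), Eif2a at 12.9 and 49.9 (1.90), Eif2b3 at 17.6 and 54.8 (1.61) and Eif2s2 at 12.9 and 32.9 (1.31). Eif4e had only 10.6 counts in b2. With its copies added its ratio was 0.65, run 2 gave -0.08 and it was not called. With copies added to every member, 4 members were higher. Eef2kmt was lower in b3 (62.3 to 29.2 CPM, -1.08). The median log2 ratio of the members was 0.24, against 0.11 over all genes, and the summed level of all members had a ratio of 0.31. Median cells held 11276 CPM of members in b2 and 13864 in b3. The macrophage list summed to 121 CPM in b2 and 19.5 in b3, with C1qa and Adgre1 at 0 in both, and the plexus markers also stood higher in b2, as given above. Their part in these differences was not tested.

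From late HE to the progenitors, none of 47 members was called between c4 and c5 (13.6% of 6160 genes). From a2 to p1, 4 of 48 were higher and none lower (7.73% of 5536 genes were higher, 16.9% called in all). These were Eif4g3 (53.5 to 108 CPM), Eif3d (51.2 to 110), Eef2kmt (32.9 to 71.6) and Eif1a (33.8 to 92.0), with log2 ratios of 1.01, 1.11, 1.12 and 1.44. Among cells of 30000 to 60000 counts the ratio of Eef2kmt was -0.28. From b3 to p2, Eif3m was lower (28.1 to 8.98 CPM), the single call among 47 members (13.4% of 5370 genes, 7.82% lower). Its counts were 23.1 in b3 and 6.58 in p2, and most reads of this gene lie on its copy.

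Eif5a was ordered by stage along each of the 3 lines, though under the 2-fold limit at each step. In the AGM it was at 1191 CPM in c3 [211, 1225, 1979], 1656 in c4 [1051, 1651, 2762] and 2030 in c5 [1557, 2141, 2667]. In the arterial yolk sac line it was at 2078 in a1 [1016, 1858, 3568], 2531 in a2 [288, 2504, 4397] and 3287 in p1 [1329, 3207, 4338]. In the plexus line it was at 1938 in b2 [868, 1896, 3890], 2873 in b3 [1013, 2987, 4734] and 3471 in p2 [2627, 3575, 4160]. Neighbouring stages overlapped in single cells. The log2 ratios of the 6 steps ran from 0.27 (p2 over b3) to 0.57 (b3 over b2), and the direction was the same in each run except p2 over b3, where run 1 gave -0.05.

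Eef1d, the exchange factor that recharges Eef1a, followed the same order, at 401, 452 and 526 CPM in c3, c4 and c5, 646, 680 and 827 in a1, a2 and p1, and 607, 767 and 1137 in b2, b3 and p2. Its largest step was p2 over b3 (0.57, 0.42 to 0.72), and single runs turned direction in a2 over a1, c5 over c4 and p1 over a2. Eef1a1 did not follow it, with -0.10 for c4 over c3, 0.28 for a2 over a1 and -0.19 for p1 over a2. Summed over all members, the medians per cell were 11169, 11911 and 12411 CPM in c3, c4 and c5, 12019, 12795 and 13871 in a1, a2 and p1, and 11276, 13864 and 15040 in b2, b3 and p2. The endothelial markers given above had the opposite order along each line.

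The GTP-binding subunit of Eif2 has an X-linked gene, Eif2s3x, and a Y-linked one, Eif2s3y. Where its reads are placed rightly, a count of Eif2s3y marks a cell from a male embryo. Its estimated counts were partly fractional (20.3 in b3), and whether reads of similar genes were placed on it was not tested. At least 1 count after rounding was seen in 8 of 49 HE-AGM cells (16.3%, exact binomial interval 7.32 to 29.7). Such a count was seen in 9 of 52 HE-YSA cells (17.3%, 8.23 to 30.3) and 16 of 49 HE-YSP cells (32.7%, 19.9 to 47.5). The intervals overlapped. Thinned to 17000 counts per cell, the shares were 10.2, 11.5 and 24.5%. Eif2s3x was seen in 91.8%, 63.5% and 71.4% of the cells. With 10.4 to 27.4 CPM of Eif2s3y, many male cells would show no count at these depths, so the shares are no estimate of sex.

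The other genes of translation, 40 genes in a list by role, were tested by the same rule. Over HE-YSA, 13 of 29 tested were higher in HE-AGM and 1 lower, where 24.2% of all genes were higher and 12.8% lower, and the list's median log2 ratio was 0.61. Over HE-YSP 11 of 30 were higher and 1 lower, where 26.1% and 15.1% of all genes were, with a median of 0.60. Pabpc1, the poly(A)-binding protein that closes the mRNA loop with Eif4g1, was at 847 CPM in HE-AGM [137, 809, 1653], against 151 in HE-YSA [0, 102, 641] and 143 in HE-YSP [0, 85.4, 755], with ratios of 2.48 and 2.57. Paip1, its partner, was at 102, 8.40 and 2.99 CPM. Among factors of termination, Etf1 was at 44.2, 10.496 and 8.37 CPM and Gspt1 at 90.4, 33.6 and 44.0 CPM, both called in each comparison. Pdcd4, an inhibitor of Eif4a1, was at 362 CPM in HE-AGM [0, 339, 1405], against 142 in HE-YSA [0, 44.7, 804] and 6.58 in HE-YSP [0, 0, 66.7], and it was called between HE-YSA and HE-YSP too (4.37, 3.57 to 5.45). Pseudogene copies of these genes were not counted. Length-bin medians were not subtracted for the list either, although ratios of HE-AGM over yolk sac HE moved with transcript length, as given above.

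Dohh, the second enzyme that makes the hypusine of Eif5a, was the gene of the list that was lower in HE-AGM, at 55.6 CPM [0, 24.0, 234] against 132 in HE-YSA [0, 132, 404] and 112 in HE-YSP [0, 100.04, 466] (-1.25 and -1.01). It moved in the same direction as Eif5a. Dhps, the first enzyme of that pathway, did not, with 25.2, 26.2 and 24.5 CPM. From a2 to p1 Dhps was lower, at 28.2 and 3.05 CPM (-2.91, with a counting interval of -6.32 to -1.23), while Eif5a was higher by 0.38. Between HE-YSA and HE-YSP 2 genes of the list were higher and 2 lower of 24 tested, where 10.1% of all genes were called. Over the 6 steps the list gave 9 higher and 6 lower calls with 20 to 30 genes tested at each, none of them between b3 and p2, where 12.7 to 17.8% of all genes were called at each step.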

How the data were processed

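Single-cell Smart-seq2 cDNA was sequenced on 3 PromethION nanopore runs. The authors' pipeline cut adapters and dropped chimeras before alignment to the transcripts of GENCODE release 37, kept at most 10 alignments per read, and estimated counts per transcript with NanoCount. Submitters' processing notes name minimap2, R 4.3.0 and DESeq2 1.40.2. The deposited unit is an estimated count for 278369 transcripts in 221 cells, all of which matched a label (0 unused columns). A second table of the same estimates scaled to a common total was not used.

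Transcripts were summed to genes. Cells under 1 scaled median absolute deviation below the median total were removed, and estimated counts were rounded for intervals and thinning. Counts were summed over the cells of a group, scaled to CPM and compared as log2 ratios with 0.5 counts added. Since a group is 1 sample, nothing was tested across samples: Poisson and binomial 95% intervals cover counting error only, and totals of 18131 to 125339 counts per cell limit precision. Members named were those called in any comparison, the leading members of each class, the fixed pairs of related genes and genes with a called isoform. Members, lists and rules were chosen with earlier results of these data known.

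Pseudogene copies were found with minimap2 2.31 among 129966 transcripts of GENCODE M21 (GRCm38) that matched the table by identifier and length and held 89.3% of counts. The files use another release, so no genome coordinates are given. Calculations used numpy 2.4.6, pandas 2.3.3 and scipy 1.17.1, and size factors for an alternative came from DESeq2 1.42.0 in R 4.3.3. Scripts were tested on simulated data. Alternatives changed the scaling, cells, runs, level limit and copies. The copies found by alignment, the subtraction of length-bin medians and the removal of 6 c3 cells were added after seeing the data.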

Additional observations from a re-analysis of the deposited data

Results flagged for a closer look

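Counts appeared on 6 processed pseudogenes that lie outside the members' rule, each above the 3 counts taken as the floor. Over all 208 cells there were 11815 counts on Gm4366, 3871 on Gm7658, 3480 on Eif4a-ps4, 3061 on Eef2-ps2, 2227 on Gm10157 and 1712 on Gm6552, the copies of Eef1g, Eif3m, Eif4a1, Eef2, Eif1 and Eif3h. The part that misplaced reads of the genes have in these counts was not tested.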

How the results depend on the processing

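Across settings the direction and size held for most values, with 96 of the 152 alternatives on counts of calls, summed levels and shares of cells close to the main value. Of ratios, medians and isoform shares of single genes, 2701 alternatives lay within the run-to-run spread of the value reported, 405 lay outside it and 7 reversed. The cause of a change was not tested. In HE-AGM against HE-YSA (13 called), poscounts size factors gave 20 members (17 higher, 3 lower, with a median of all genes at 0.40 in place of 0.13), run 3 alone 20 and length-bin medians subtracted 7. Against HE-YSP (15 called), copies found by alignment gave 9 and length-bin medians 8. HE-YSA against HE-YSP (0 called) gave 1 with the log-scale depth limit, poscounts, centring, the mean of cell CPM or without the 3 odd yolk sac cells, 2 in cells of 30000 to 60000 counts, 4 after thinning, 5 with cells of the latest embryonic day only, and 9, 9 and 4 in runs 1, 2 and 3 alone. Of the steps, c4 against c3 (0) gave 4 in cells of 30000 to 60000 counts, 11, 7 and 7 in single runs, 1 at 10 CPM and 1 (Eif2b5) without 6 c3 cells. Then a2 against a1 (4) gave 14, 13 and 8 in single runs, and b3 against b2 (6) gave 11 and 13 in runs 2 and 3. For c5 against c4 (0) there were 3 in cells of 30000 to 60000 counts, 10, 9 and 6 in single runs and 2 at 10 CPM. For p1 against a2 (4) there were 2 by mean cell CPM and 17, 15 and 13 in single runs. For p2 against b3 (1) there were 2 after centring, by mean cell CPM or at 10 CPM, 3 in cells of 30000 to 60000 counts, and 7, 11 and 5 in single runs. Single runs have no check across runs and fewer cells. The shares of all genes called under these settings were not computed, so the counts have no background.

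Isoform calls over HE-YSA (12 of 32 tested) were 6 of 14, 6 of 12 and 5 of 16 in single runs. They were 6 of 19 in cells of 30000 to 60000 counts and 4 of 20 with protein-coding transcripts only. Over HE-YSP (9 of 29) they were 5 of 12 in run 2, 5 of 20 with protein-coding transcripts only and 5 of 18 with cells of the latest day. Between the yolk sac populations (0 of 27) there was 1 of 27 as a mean over cells. Fewer members were thus tested over HE-YSA and HE-YSP, and shares of all genes were not computed. With totals that leave out ribosomal protein genes, mitochondrial genes and pseudogenes, the median sum of all members was 16054.8 CPM for HE-AGM, 19410.8 for HE-YSA and 18794.6 for HE-YSP. At 3 counts in place of 1, Eif2s3y was seen in 16.33% of HE-YSP cells. Reversed ratios were Eif3h with copies (-0.29 over HE-YSA, -0.20 over HE-YSP), Eif3m with copies (-0.40 over HE-YSP), Eif3a (-0.17 and -0.23) and Eif4g1 (-0.25 over HE-YSP) after length-bin medians, and Eef2kmt in p1 over a2 (-0.28) in cells of 30000 to 60000 counts. No paired analysis was possible because each group is 1 sample and no embryo is named.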
